A study of Mus musculus with 31 samples.

Results

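The miR-297, miR-466, miR-467 and miR-669 families were read from small-RNA libraries of mouse embryonic stem cells (mESCs) and set beside the mRNA of *Sfmbt2*, the gene that hosts them. The members were the miRNAs whose names carry one of these 4 family numbers, and 18 of the 507 miRNAs in the small-RNA table did: 1 of miR-297, 6 of miR-466, 3 of miR-467 and 8 of miR-669. Of the 18, 11 came from the 5p arm of their hairpin, 6 from the 3p arm and 1 (miR-466g) is named without an arm.

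The study asked how Trim71, an RNA-binding protein of stem cells, acts on *Ago2* mRNA, which encodes an Argonaute protein. All mESCs derived from the ES-E14TG2a line and carried a FLAG tag on the endogenous Trim71, and the cells with no further change were called WT. CLIPΔ mESCs lack the stretch of the *Ago2* 3' untranslated region that Trim71 binds, *Ago2* KO mESCs lack *Ago2*, and *Ago2* KO/CLIPΔ mESCs carry both changes. Each genotype had 4 small-RNA libraries. RNA-seq was done on 2 libraries each of WT and CLIPΔ and on 4 libraries of either genotype without *Ago2*. The cells were grown in medium with 2 kinase inhibitors and Lif, which holds mESCs in the naive state. CLIPΔ was made as 2 independent clones, and which clone a library came from is not given in the sources used here. The samples are named biological replicates, but nothing says that they came from separate cultures, so p-values measure the spread between these libraries, which may be technical.

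A miRNA is cut from a long transcript by Drosha and Dgcr8, exported by Xpo5, cut again by Dicer and loaded into an Argonaute protein, which keeps one arm of the hairpin, or at times either arm, as the mature miRNA. *Sfmbt2* encodes a Polycomb group protein and is imprinted, with expression from the paternal allele in early embryo and placenta. One of its introns holds a large rodent miRNA cluster, known from placenta and embryonic stem cells, in which near copies of a few hairpins are repeated many times.

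All 18 members mapped inside *Sfmbt2* in the RefSeq annotation of GRCm38.p6. *Sfmbt2* lies on the plus strand of chromosome 2, bases 10370440 to 10595253, and its transcript NM_177386.5 has 23 exons. The members fell within intron 11 (bases 10461473 to 10523944, 62472 bp) between bases 10466713 and 10518197, a span of 51485 bp, and on the same strand as the gene. They formed a pair of groups separated by a stretch of 31768 bp that holds no listed member. RefSeq has 72 hairpins of these families inside *Sfmbt2*, of which 18 are those of the members. The group nearer the start of the intron held 8 members in 7250 bp, among them miR-669f, miR-669e, miR-669l and miR-467c. The other group held 10 members in 12467 bp, among them miR-467e, miR-467d, miR-669c, miR-297b, miR-466d and miR-669o. RefSeq has 80 mature names in these 4 families, of which 69 lie wholly inside *Sfmbt2*. Of the 80, 17 have more than 1 locus, and the table listed 1 of these 17, miR-466f-3p with 3 loci. The values of miR-466f-3p, and of any member that shares reads with a near copy, are therefore uncertain as to their locus. The table lists only miRNAs above 0 in every library.

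**Figure D1:**
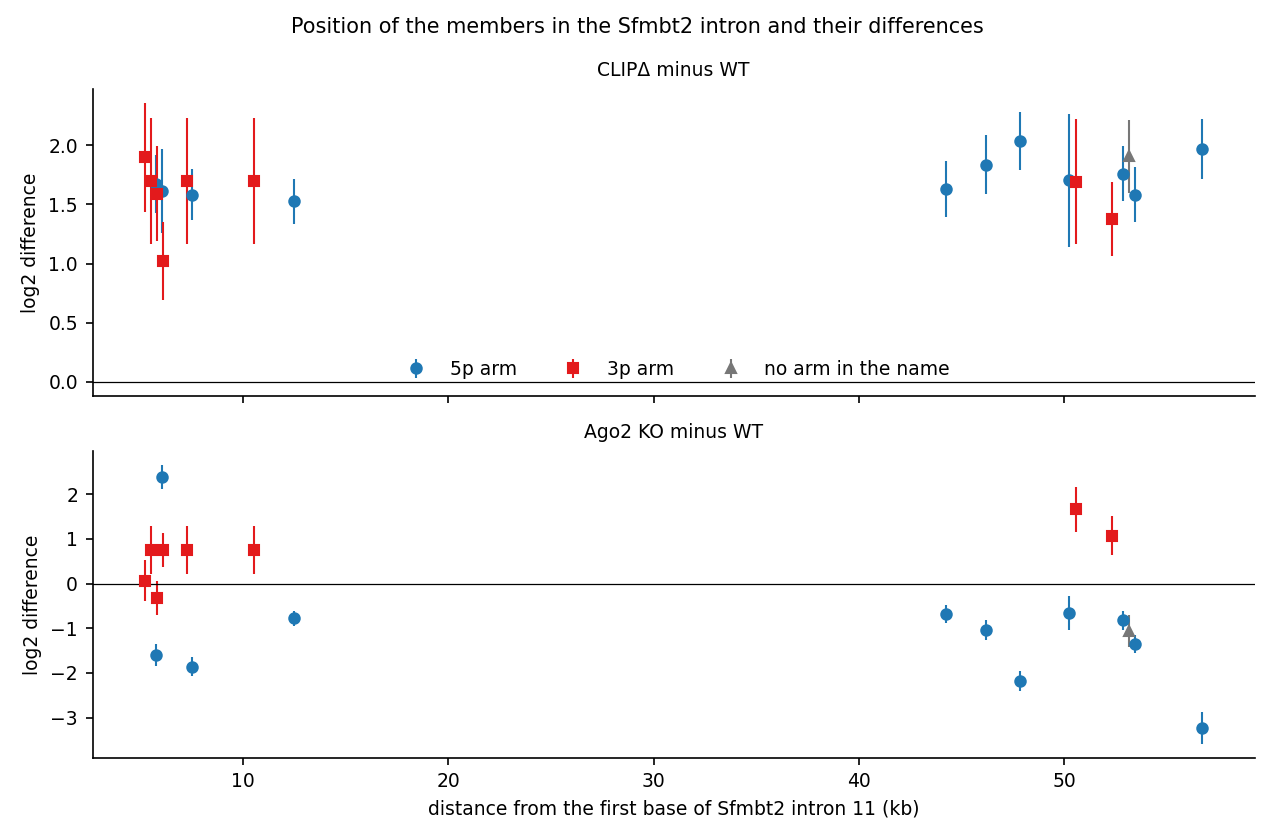
Each point is a member locus, placed by its distance in kb from the first base of *Sfmbt2* intron 11, with its difference on the log2(TPM + 1) scale on the vertical axis (bars are the standard error of the limma fit without the filter; miR-466f-3p is drawn at its 3 loci). In the upper panel (CLIPΔ minus WT) all points of both groups of loci lie above 0, and in the lower panel (*Ago2* KO minus WT) 10 of the 11 5p members lie below 0 and 5 of the 6 3p members above it.

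The small-RNA libraries differed in depth between the genotypes with and without *Ago2*. The reads behind them, inferred from the steps in the deposited values, were 5405559 to 8346065 in WT, 3130374 to 7885332 in CLIPΔ, 827571 to 1067724 in *Ago2* KO and 872709 to 1325726 in *Ago2* KO/CLIPΔ. Depth and *Ago2* genotype therefore cannot be told apart, and 8 of the 18 members had under 30 reads in every *Ago2* KO library. *Ago2* mRNA, the targeted gene, was 28.2 and 21.6 TPM in WT, 27.3 and 20.3 TPM in CLIPΔ, 1.67 to 2.29 TPM in *Ago2* KO and 1.51 to 2.87 TPM in *Ago2* KO/CLIPΔ (log2 difference of *Ago2* KO from WT -3.13 ± 0.14, limma, adjusted p = 0.000128). Of 8 markers of pluripotent mESCs 7 were in the RNA-seq table, and their summed level was 6236 to 6999 TPM in WT, 5650 to 5874 in CLIPΔ, 5847 to 6312 in *Ago2* KO and 5719 to 5891 in *Ago2* KO/CLIPΔ. In *Ago2* KO against WT *Pou5f1* passed as higher and *Klf4* and *Tdgf1* as lower (limma), where 14.1% of all genes were higher and 43.5% lower. *Klf4* and *Tdgf1* lost their calls with centred libraries. With the replicate number as a block 0 of the 7 passed, but that fit keeps only libraries 1 and 2 of either genotype, which share only a number. A call lost there therefore does not show that a marker was unchanged. *Klf4* was 1246 and 1076 TPM in WT and 825 and 731 in CLIPΔ, and it passed as lower there with the block but not without it. Of 10 trophoblast markers 8 were in the table, with a summed level of 101 to 103 TPM in WT, 103 to 107 in CLIPΔ, 62.0 to 101 in *Ago2* KO and 59.6 to 80.7 in *Ago2* KO/CLIPΔ. Within the sum, the values of *Eomes* and *Tfap2c*, 2 trophoblast transcription factors, lay in opposite directions. *Eomes* was 52.9 and 46.1 TPM in WT and 26.3 and 24.7 in CLIPΔ, and *Tfap2c* was 34.1 and 25.1 TPM in WT and 57.5 and 55.7 in CLIPΔ, both without overlap. Of the 5 trophoblast markers tested 0 passed between CLIPΔ and WT (limma, adjusted p = 0.514 for *Eomes* and 0.600 for *Tfap2c*), where 0.0% of all 11642 genes tested passed. With the replicate number as a block *Tfap2c* passed as higher and *Eomes* as lower (limma, adjusted p = 0.0342 and 0.0237). With that block 1.64% of all genes were higher and 1.22% lower. The part of these markers in the levels of the members was not tested. Markers of primed and early lineages (4 of 6 in the table) summed to 32.4 to 35.3 TPM in WT, 23.2 to 24.9 in CLIPΔ, 14.3 to 20.1 in *Ago2* KO and 17.9 to 23.6 in *Ago2* KO/CLIPΔ, and those of primitive endoderm and fibroblasts to at most 7.27 and 3.73 TPM. In bulk libraries, fewer cells of a type and less RNA per cell cannot be told apart.

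The families were a small part of the miRNAs of these cells, and 2 members carried most of their level. In WT the 18 members summed to 0.481%, 0.473%, 0.315% and 0.409% of all miRNAs in libraries A to D (as TPM, the length-corrected share of a library). miR-467c-5p and miR-669c-5p together held 62.1% ± 0.900 (SD, n = 4) of that sum. By mean over all 16 libraries miR-467c-5p ranked 76 and miR-669c-5p ranked 77 of the 507 miRNAs, and miR-669e-3p, the lowest member, ranked 503.

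miR-467c-5p was measured at 1623, 1600.4, 1199 and 1059 TPM in WT libraries A to D, and miR-669c-5p at 1353, 1282, 766 and 1524 TPM. Their means in WT, 1370.3 ± 285 and 1231 ± 326 TPM (SD, n = 4), differ by less than the spread between libraries. Below them came miR-669l-5p at 472 ± 121 TPM, miR-467e-5p at 294 ± 73.8 TPM and miR-669o-5p at 261 ± 69.4 TPM, and the ranges of miR-467e-5p and miR-669o-5p overlapped. miR-466h-5p was at 158 ± 37.2 TPM. The remaining 12 members had WT means from 1.25 TPM (miR-669e-3p) to 95.5 TPM (miR-669f-5p).

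**Figure D2:**
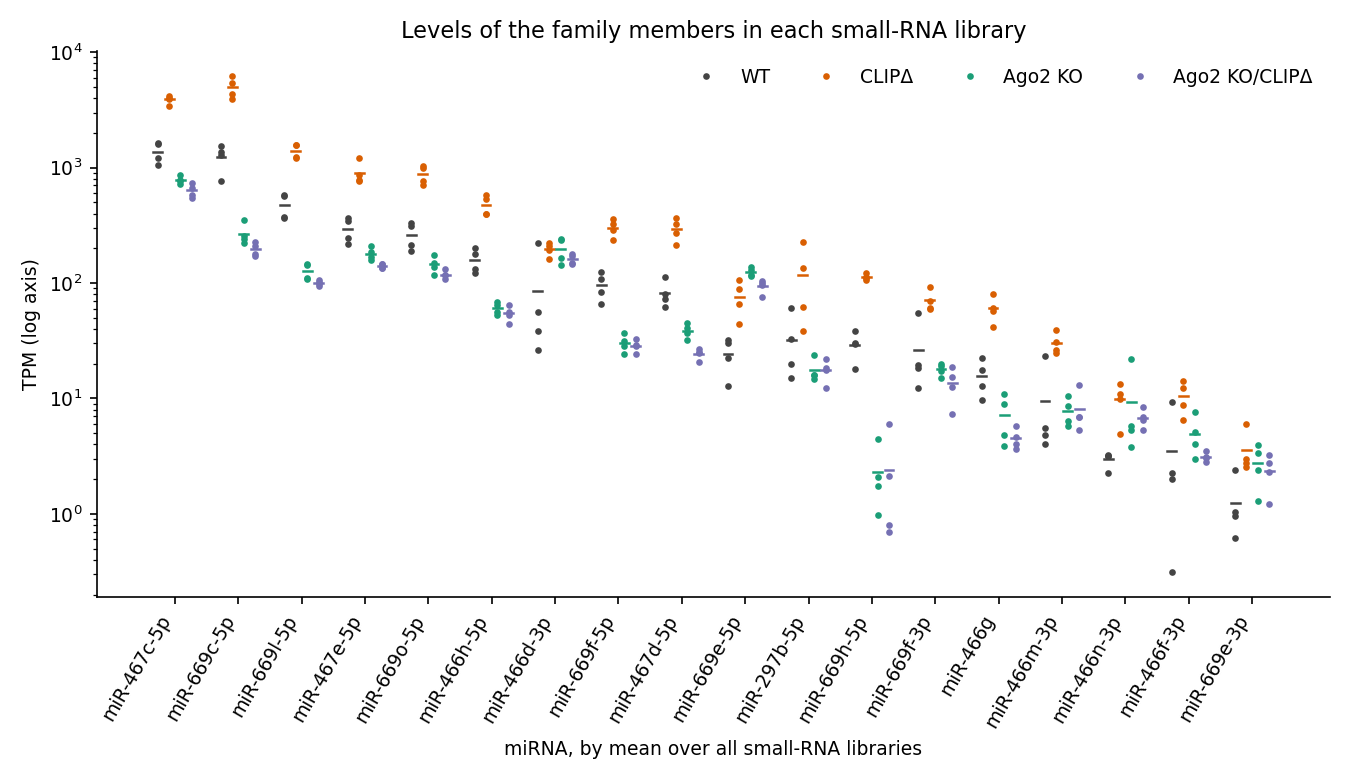
Level of each of the 18 members in TPM (log axis) in the 16 small-RNA libraries, ordered by the mean over all libraries; points are libraries and short lines are group means. CLIPΔ lies above WT for 15 members without overlap, the *Ago2* KO groups lie lowest for most 5p members, and miR-669e-5p and miR-466d-3p are high in the *Ago2* KO groups.

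To ask what loss of the Trim71-binding region did to the families, CLIPΔ was compared with WT. The whole group of members was higher in CLIPΔ. The sum of the 18 rose to 1.46%, 1.39%, 1.27% and 1.40% of all miRNAs in CLIPΔ libraries A to D, 3.29 times the WT mean, and no CLIPΔ library came near the WT range. The ratio of means was alike across families, at 3.63 for miR-297, 2.84 for miR-466, 2.92 for miR-467 and 3.64 for miR-669. Single members ranged from 2.31-fold (miR-466d-3p) to 4.04-fold (miR-669c-5p), with a median of 3.15. Without WT library D, in which miR-466d-3p was high, its ratio was 4.89 and the members ranged from 2.64-fold (miR-467c-5p) to 6.79-fold (miR-466f-3p, at a mean of 1.53 TPM in the other WT libraries), with a median of 3.53 and miR-669c-5p at 4.38-fold.

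In the miR-669 family, miR-669c-5p reached 5386, 3918, 4305 and 6265 TPM in CLIPΔ libraries A to D. Its lowest CLIPΔ library was above its highest WT library, and its log2 difference was 2.03 ± 0.25 (SE; limma, Benjamini-Hochberg adjusted p = 0.000274). miR-669l-5p was 584, 569, 372 and 364 TPM in WT and 1566, 1567, 1233 and 1204 TPM in CLIPΔ. Library for library the CLIPΔ values were well above, and the log2 difference was 1.58 ± 0.22 (limma, adjusted p = 0.000489). miR-669o-5p was 313, 328, 189 and 215 TPM in WT and 996, 1035, 707 and 765 TPM in CLIPΔ, a log2 difference of 1.76 ± 0.24 (limma, adjusted p = 0.000414). In both of these miRNAs libraries A and B were the high ones in WT and again in CLIPΔ, and the genotypes did not overlap. miR-669f-5p was 123, 109, 66.0 and 83.8 TPM in WT and 360.0, 322, 290 and 235 TPM in CLIPΔ, with a log2 difference of 1.67 ± 0.24 (limma, adjusted p = 0.000533), again with no overlap. Far lower, miR-669h-5p went from 30.5, 38.6, 17.96 and 29.5 TPM in WT to 112, 123, 111 and 107 TPM in CLIPΔ.

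In the miR-467 family, miR-467c-5p was 4039, 4132, 3966 and 3430 TPM in CLIPΔ libraries A to D. These 4 values lay close together and far above WT (log2 difference 1.53 ± 0.19, limma, adjusted p = 0.000274). miR-467e-5p was 345, 369, 243 and 219 TPM in WT and 782, 1217, 868 and 759 TPM in CLIPΔ (log2 difference 1.63 ± 0.24, limma, adjusted p = 0.000607). Library B was the highest for miR-467e-5p in both genotypes. miR-467d-5p, from the hairpin next to it, was 72.3, 80.1, 62.4 and 112 TPM in WT and 214, 270.2, 322 and 368 TPM in CLIPΔ (log2 difference 1.84 ± 0.24, limma, adjusted p = 0.000382). Here library D was the highest in both genotypes, and the genotypes were apart.

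The miR-466 family and miR-297b-5p were lower and more variable. miR-466h-5p was 202, 177, 133 and 123 TPM in WT and 532, 574, 395 and 395 TPM in CLIPΔ, a log2 difference of 1.58 ± 0.23 (limma, adjusted p = 0.000533). miR-466d-3p was 55.9, 38.3, 26.4 and 220.1 TPM in WT and 161, 208, 195 and 222 TPM in CLIPΔ. WT library D lay inside the CLIPΔ range for miR-466d-3p, and the other WT libraries lay far below it. Its log2 difference was 1.69 ± 0.54 (limma, adjusted p = 0.0432), and the call was lost when any one library other than WT D was left out. With the library letter as a block its adjusted p was 0.0023 (limma). miR-297b-5p, the only miR-297 member, was 32.8, 60.6, 19.8 and 15.1 TPM in WT and 136, 229, 62.1 and 38.8 TPM in CLIPΔ. Its libraries fell in the same order in both genotypes (B, A, C, D), and the genotypes overlapped.

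**Figure D3:**
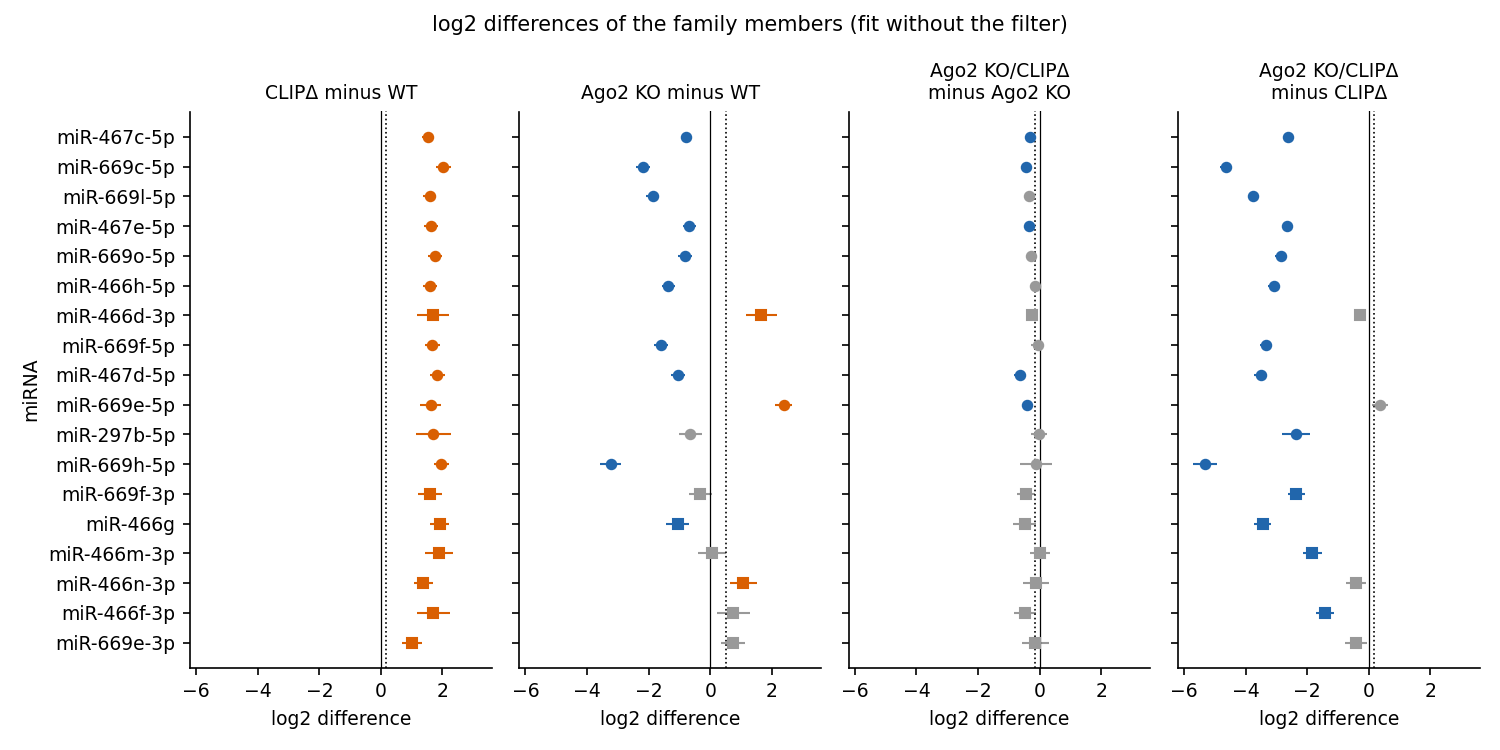
log2 difference of each member in 4 comparisons, from the limma fit to all 507 miRNAs without a filter (bars are the standard error; circles are 5p members and squares the others; orange passed as higher, blue as lower, grey did not pass; the dotted line is the median of all miRNAs). All 18 members pass as higher in CLIPΔ than in WT, and 14 pass as lower in *Ago2* KO/CLIPΔ than in CLIPΔ.

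Across the table, 9 of the 18 members passed the filter of a mean of 100 TPM over the libraries compared, and all 9 were higher in CLIPΔ at an adjusted p under 0.05 (limma). Of the 9, miR-669f-5p, miR-467d-5p and miR-466d-3p had WT means of 95.5, 81.8 and 85.2 TPM and passed the filter through CLIPΔ. Of all 227 miRNAs past the filter 19.4% were higher and 8.37% lower, and the median log2 difference was 1.67 over the 9 members and 0.043 over the 227. Without the filter 18 of 18 members passed as higher, against 19.9% of the 507 miRNAs higher and 6.9% lower, with log2 differences from 1.02 (miR-669e-3p) to 2.03. The values of CLIPΔ and WT did not overlap in 15 of the 18 members, and they were higher without overlap in 20.1% of all miRNAs and lower in 9.07%. On either side of the stretch of the intron with no listed member the median log2 difference was 1.60 over the 8 and 1.73 over the 10, and whether the sides differed was not tested. By contrast, of the miR-290 to miR-295 cluster, the main miRNAs of mESCs, 1 of 10 tested was higher and 0 lower, of the miR-17 to miR-92 cluster 1 of 8 was lower and 0 higher, and of miR-302 with miR-367 5 of 5 were lower. The split of all calls depended on scaling, with 44 higher and 19 lower on the total of each library and 32 higher and 28 lower when each library was centred on its median, but the 8 5p members tested were called higher in both (14.1% of all miRNAs higher and 12.3% lower with centring). miR-466d-3p lost its call with centring and with size factors (limma, adjusted p = 0.0591 and 0.0577). With the library letter as a block 9 of 9 members passed as higher, and 33.9% of all miRNAs were higher and 21.1% lower. The adjusted p was then 2.6e-06 for miR-669c-5p and 0.0023 for miR-466d-3p (limma), lower than in the fit without the letter.

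WT library D stood apart in the 3p members. The 6 of them summed to 87.2, 67.9, 47.0 and 313 TPM in WT libraries A to D, so that D alone held more than the others together. For the 3 3p members averaging 5 TPM or more in WT, the median log2 deviation of library D from the median of the other WT libraries was 2.08. For all 3p miRNAs above that level it was 0.11. The WT average includes library D, and without D that of miR-466m-3p was 4.79 TPM. Of the 3p members under the level, miR-466f-3p and miR-669e-3p were highest in library D and miR-466n-3p was lowest. In the same library the 5p members deviated by -0.54 and all 5p miRNAs by -0.145. The 5p members deviated by 0.50, 0.42 and -0.61 in libraries A to C, so D did not stand apart in them. Without WT library D and without the filter, 17 of 18 members passed as higher in CLIPΔ, and miR-297b-5p did not. Of all 507 miRNAs 116 were higher and 39 lower in that fit. Without library D the ratio of CLIPΔ to WT over the summed 3p members went from 2.49 to 4.77, and that over the 5p members from 3.31 to 3.23.

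To ask how the families depended on *Ago2*, *Ago2* KO was compared with WT. Here the members did not move as one group. Most 5p members were lower, led by miR-669h-5p, miR-669c-5p and miR-669l-5p, whereas miR-669e-5p and a pair of 3p members were higher. The sum of the 18 was 0.214%, 0.212%, 0.187% and 0.196% of all miRNAs in *Ago2* KO libraries 1 to 4, below the lowest WT library, and the mean of WT was 2.07 times that of *Ago2* KO.

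miR-669c-5p was 256, 348, 223 and 241 TPM in *Ago2* KO libraries 1 to 4. That is well under its lowest WT library, a log2 difference of -2.18 ± 0.23 (limma, adjusted p = 5.57e-06). miR-669l-5p was 144, 108, 145 and 110.4 TPM, also with no overlap (log2 difference -1.87 ± 0.21, limma, adjusted p = 7.81e-06). miR-467c-5p fell less, to 785, 772, 726 and 858 TPM (log2 difference -0.78 ± 0.17, limma, adjusted p = 0.00132). Its mean was the higher of these 3 in WT too, and in *Ago2* KO it lay above miR-669c-5p without overlap. miR-467e-5p was 208, 158, 186 and 169 TPM and miR-669o-5p was 148, 176, 138 and 117 TPM. Both stayed below every WT library, with log2 differences of -0.68 ± 0.20 and -0.82 ± 0.21 (limma, adjusted p = 0.00812 and 0.00412). miR-466h-5p was 68.5, 56.0, 52.6 and 64.4 TPM, under every WT library (log2 difference -1.36 ± 0.19, limma, adjusted p = 5.66e-05).

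Among the lower members read without the filter, miR-669h-5p had the widest gap. It was 4.47, 1.73, 0.980 and 2.099 TPM in *Ago2* KO, a handful of reads in each library, against 17.96 to 38.6 TPM in WT (log2 difference -3.24 ± 0.35, limma, adjusted p = 3.57e-06). miR-669f-5p was 36.9, 28.6, 31.4 and 24.1 TPM (log2 difference -1.60 ± 0.24, limma, adjusted p = 5.52e-05) and miR-467d-5p was 40.4, 44.6, 32.2 and 36.8 TPM (log2 difference -1.04 ± 0.22, limma, adjusted p = 0.00104). Neither overlapped WT.

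The higher members stood against this. miR-669e-5p was 30.1, 32.1, 22.2 and 12.8 TPM in WT and 137, 118, 129 and 115 TPM in *Ago2* KO. The genotypes were far apart, with a log2 difference of 2.39 ± 0.27 in the fit without the filter (limma, adjusted p = 4.8e-06), a 5.13-fold higher mean. miR-669e lies between miR-669f and miR-669l in the intron, the 5p arms of which were both lower. miR-466d-3p was 240.2, 234, 142 and 165 TPM in *Ago2* KO, above WT libraries A to C and on both sides of D (log2 difference 1.66 ± 0.53, limma, adjusted p = 0.0139). That call was lost with size-factor scaling (adjusted p = 0.0597).

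Of the 18 members 7 passed the filter, of which 1 was higher and 6 were lower (limma), while 50.0% of all 240 tested miRNAs were higher and 32.9% lower. miR-466d-3p had a WT mean of 85.2 TPM and miR-466h-5p an *Ago2* KO mean of 60.4 TPM, so each passed the filter through its higher group. The median log2 difference was -0.82 over the 7 members and 0.44 over the 240, so that relative to the other miRNAs the members were lower still. With size factors the calls over all miRNAs were 97 higher and 96 lower, in place of 120 and 79. Without the filter 3 of 18 members were higher (miR-669e-5p, miR-466d-3p and miR-466n-3p) and 10 lower, against 44.4% and 26.4% of the 507. Without overlap of the libraries, 2 members were higher and 9 lower, against 40.8% and 25.0% of all miRNAs.

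The calls were also counted by arm. Of the 11 5p members 9 were lower and 1 was higher, with a median log2 difference of -1.04, and of the 6 3p members 0 were lower and 2 were higher, with a median of 0.75 (limma without the filter). Over all 236 5p miRNAs 79 were lower and 97 higher with a median of 0.34, and over all 240 3p miRNAs 53 were lower and 109 higher with a median of 0.51. With WT library D left out as well, 10 5p members were lower and 1 was higher, and the 3p members called higher were 3, miR-466d-3p, miR-466f-3p and miR-669e-3p, while miR-466n-3p lost its call (limma, adjusted p = 0.0775). In that fit 86 of all 5p miRNAs were lower and 103 higher, and 57 of all 3p miRNAs were lower and 117 higher. Whether the arms differed was not tested, and the 3p members rested on few reads, with WT library D apart.

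A pair of hairpins gave both arms. For miR-669f the reads of the 5p arm per read of the 3p arm were 6.57, 6.21, 5.56 and 1.58 in WT libraries A to D and 6.36, 3.65, 4.33 and 4.01 in CLIPΔ. In *Ago2* KO the ratio was 2.54, 1.57, 1.88 and 1.28 in libraries 1 to 4, and in *Ago2* KO/CLIPΔ it was 1.59, 4.14, 2.73 and 1.67. Save for WT library D, the *Ago2* KO libraries were below every WT and CLIPΔ library. Their miR-669f ratios rested on 23 to 33 5p reads and 13 to 21 3p reads per library. *Ago2* KO/CLIPΔ library 2, at 4.14 on 7 3p reads, lay inside the CLIPΔ range. The miR-669e hairpin gave far more 5p than 3p reads throughout, at 33.2, 32.6, 37.5 and 5.67 in WT and 112, 31, 40 and 50 in *Ago2* KO. WT library D was the lowest for this hairpin too, and the genotypes overlapped. The ratios in the *Ago2* KO libraries rested on 1 to a few 3p reads for miR-669e.

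**Figure D4:**
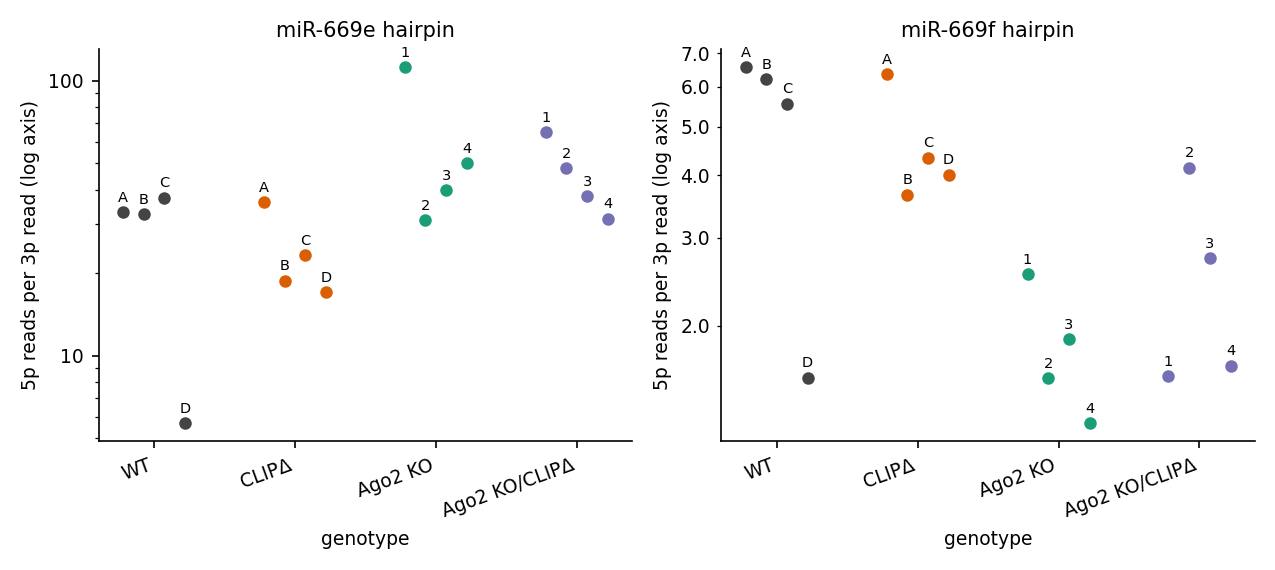
Reads of the 5p arm per read of the 3p arm (log axis) for the miR-669e and miR-669f hairpins in each library, with the library letter or number beside its point. WT library D lies far below the other WT libraries in both panels, at 5.67 and 1.58, and for miR-669f the *Ago2* KO libraries lie between 1.28 and 2.54.

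To ask whether CLIPΔ changed the families in cells without *Ago2*, *Ago2* KO/CLIPΔ was compared with *Ago2* KO. No member passed as higher here, and a few passed as slightly lower. The sum of the 18 was 0.177%, 0.170%, 0.151% and 0.146% of all miRNAs in *Ago2* KO/CLIPΔ libraries 1 to 4, each below every *Ago2* KO library, and the mean was 0.796 times that of *Ago2* KO. miR-467c-5p was 742, 672, 576 and 544 TPM, which overlapped *Ago2* KO, with a log2 difference of -0.32 ± 0.11 (limma, adjusted p = 0.0276). miR-669c-5p was 225, 209, 178 and 172 TPM, again overlapping (log2 difference -0.43 ± 0.15, limma, adjusted p = 0.0244). miR-467e-5p was 146, 147, 136 and 134 TPM, below every *Ago2* KO library (log2 difference -0.35 ± 0.12, limma, adjusted p = 0.0267). miR-669e-5p, higher without *Ago2*, was 75.3, 105, 100.3 and 96.1 TPM, also below every *Ago2* KO library (log2 difference -0.41 ± 0.14, limma, adjusted p = 0.0237).

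Of 7 members past the filter 0 were higher and these 4 were lower (limma), against 21.6% higher and 30.6% lower of 232 miRNAs. miR-669e-5p and miR-669l-5p had *Ago2* KO/CLIPΔ means of 94.2 and 99.9 TPM and passed the filter through *Ago2* KO. The median log2 difference was -0.33 over the 7 and -0.17 over the 232. None of the 4 calls held with size-factor scaling, under which all miRNAs split into 50 higher and 21 lower in place of 50 and 71, or with all 4 genotypes in the fit. With the replicate number as a block 5 were lower, miR-669l-5p with them, against 40.5% of miRNAs lower and 21.6% higher. The data do not settle whether these libraries pair by number, but their deviations went together within libraries 1 and 2 and within libraries 3 and 4. Without the filter 5 of 18 were lower, miR-467d-5p with the 4, against 17.8% of the 507 miRNAs lower and 14.4% higher. Without overlap 4 of the 18 members were lower and 0 higher, against 18.3% and 13.6% of all miRNAs.

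Next, the effect of *Ago2* loss within CLIPΔ was read from *Ago2* KO/CLIPΔ against CLIPΔ, and the difference between the CLIPΔ effects with and without *Ago2* from the interaction of both changes. The mean sum of the members in CLIPΔ was 8.57 times that in *Ago2* KO/CLIPΔ. The steepest differences were again in the miR-669 family, with miR-669c-5p at -4.64 ± 0.18 and miR-669l-5p at -3.78 ± 0.15 on the log2 scale (limma, adjusted p = 1.76e-09 for both). In the fit without the filter miR-669h-5p was at -5.32 ± 0.39 (limma, adjusted p = 7.18e-08), resting on a few reads in the libraries without *Ago2*. By family, the means in CLIPΔ were 14.1 times those in *Ago2* KO/CLIPΔ for miR-669, 6.38 times for miR-467, 6.63 times for miR-297 and 3.27 times for miR-466.

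Of 9 members past the filter 8 were lower and 0 higher, against 36.1% lower and 46.2% higher of 249 miRNAs (limma), with a median log2 difference of -3.09 over the members and 0.27 over all. The exception was miR-466d-3p at -0.28 ± 0.16 (limma, adjusted p = 0.123), the values of which in *Ago2* KO/CLIPΔ (179, 172, 147 and 148 TPM) overlapped those of CLIPΔ. Of the 8 lower members, miR-669f-5p, miR-467d-5p, miR-466h-5p and miR-669l-5p had *Ago2* KO/CLIPΔ means under 100 TPM and passed the filter through CLIPΔ. Without the filter 14 of 18 members were lower, against 33.7% of the 507 miRNAs lower and 39.8% higher, and the other 4 were miR-466d-3p, miR-466n-3p, miR-669e-3p and miR-669e-5p. miR-669e-5p was 88.1, 107, 65.8 and 44.3 TPM in CLIPΔ, and its log2 difference of 0.36 ± 0.26 did not pass (limma, adjusted p = 0.232). Without overlap 14 members were lower, against 31.4% of all miRNAs.

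The interaction was negative for 9 of 9 members past the filter, against 26.5% lower and 22.9% higher of 249 miRNAs (limma), and for the same 9 with the replicate block, against 35.7% lower and 28.9% higher. It ranged from -1.73 ± 0.27 for miR-466h-5p to -2.47 ± 0.29 for miR-467d-5p, with a median of -1.94 over the members and -0.13 over all. For miR-467c-5p it was -1.84 ± 0.22 (limma, adjusted p = 6.42e-06), for miR-669c-5p it was -2.47 ± 0.30 (limma, adjusted p = 8.25e-06) and for miR-466d-3p it was -1.94 ± 0.61 (limma, adjusted p = 0.013). Without the filter 17 of 18 members passed, against 25.6% of the 507 miRNAs lower (81 were higher), and miR-669e-3p at -1.16 ± 0.50 did not (limma, adjusted p = 0.0733). Among the 17 were miR-669e-5p at -2.02 ± 0.39 and the 3p arm of its neighbour miR-669f at -2.03 ± 0.50. The 5 tested members of miR-302 with miR-367 had positive interactions.

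The mRNA of the host gene was low throughout. *Sfmbt2* was 1.27 and 0.952 TPM in WT and 1.67 and 1.27 TPM in CLIPΔ, values that overlap. It was 0.476, 0.573, 0.409 and 0.393 TPM in *Ago2* KO and 0.350, 0.331, 0.475 and 0.474 TPM in *Ago2* KO/CLIPΔ, below every library with *Ago2*. The mean in CLIPΔ was 1.33 times that in WT, beside 3.29 times for the summed members, and the mean in WT was 2.40 times that in *Ago2* KO, beside 2.07 times for the members. By mean level *Sfmbt2* was at percentile 21.6 of all genes in the table. The TPM of a spliced mRNA measures neither the transcription of its intron nor the processing of the miRNAs.

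**Figure D5:**
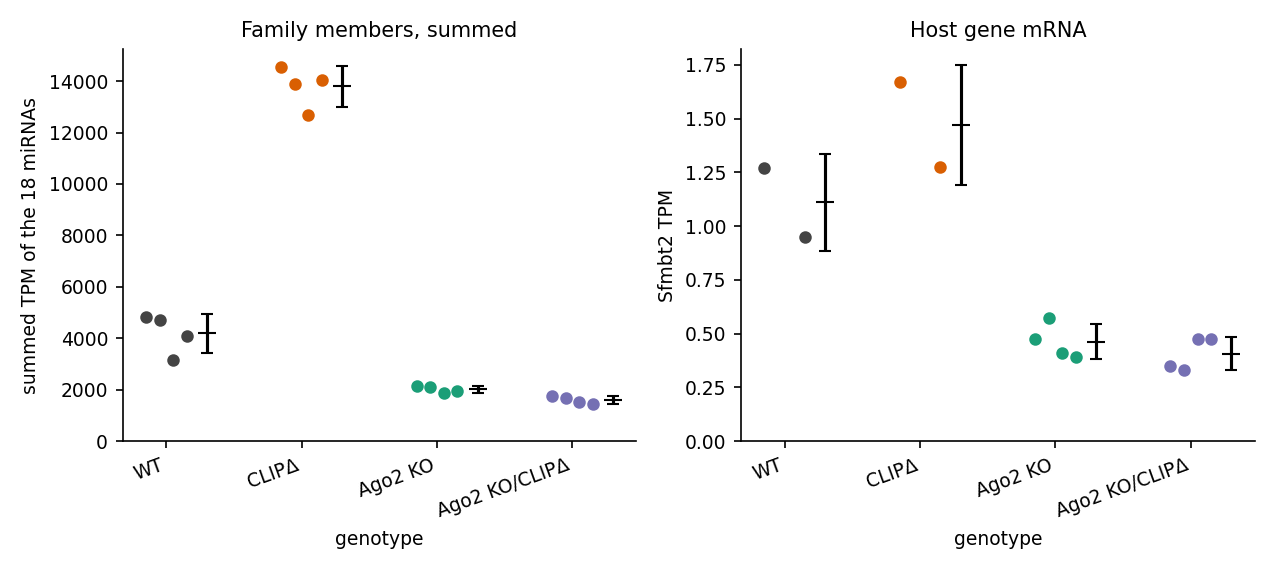
Left, the summed TPM of the 18 members in each small-RNA library by genotype; right, the TPM of *Sfmbt2* mRNA in each RNA-seq library (points are libraries, bars mean ± SD). The members sum to 12690 to 14561 in CLIPΔ and 3148 to 4813 in WT, while *Sfmbt2* overlaps between these 2 genotypes and is lowest in both *Ago2* KO groups.

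For *Sfmbt2* the log2(TPM + 1) difference of CLIPΔ from WT was 0.23 ± 0.21 (limma, adjusted p = 0.99975), where 0.0% of 11642 genes passed the test and 604 had an unadjusted p under 0.05. With the replicate number as a block it was 0.23 ± 0.13 (limma, adjusted p = 0.376), where 1.64% of genes were higher and 1.22% lower. In the other comparisons its mean was under the 1 TPM filter, and it was read in the fit to all 15034 genes. There it was lower in *Ago2* KO than in WT by a log2 difference of -0.53 ± 0.079 (limma, adjusted p = 0.0033), beside 39.4% of all genes lower and 10.7% higher. With each library centred on its median the difference was -0.10 (limma, adjusted p = 0.251) and the call was lost. The median of all 15034 genes in this comparison was -0.17 without centring and 0.26 with it, both above the value of *Sfmbt2*. In *Ago2* KO/CLIPΔ against CLIPΔ it was -0.81 ± 0.084 (limma, adjusted p = 0.0037), beside 34.1% of all genes lower and 7.84% higher, and the call held with centring at -0.42 (adjusted p = 0.0123). *Ago2* KO/CLIPΔ and *Ago2* KO differed by -0.055 ± 0.051 (limma, adjusted p = 0.64), where 2.16% of all genes were lower and 0.752% higher. The interaction was -0.28 ± 0.12 (limma, adjusted p = 0.464), where 0.971% of all genes were lower and 0.146% higher.

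Of the 21 annotated genes that start within 1 Mb of *Sfmbt2*, 4 were in the RNA-seq table. Between CLIPΔ and WT 0 of these 4 passed, where 0.0% of all 11642 genes tested passed. In *Ago2* KO *Gata3*, a transcription factor of trophoblast, was higher at 2.23, 2.51, 2.28 and 2.27 TPM against 0.780 and 0.823 TPM in WT (log2 difference 0.88 ± 0.093, limma, adjusted p = 0.000473). *Kin*, a nuclear DNA- and RNA-binding protein, was lower at 9.95, 8.30, 8.49 and 8.16 TPM against 19.7 and 22.1 TPM (log2 difference -1.18 ± 0.11, limma, adjusted p = 0.000323). *Taf3* and *Atp5c1* were lower by less, at -0.60 and -0.46, and their calls were lost with centred libraries. Of all genes past the filter 14.1% were higher and 43.5% lower. *Gata3* was also lower in *Ago2* KO/CLIPΔ than in *Ago2* KO (log2 difference -0.47 ± 0.071, limma, adjusted p = 0.0101), where 2.24% of genes were lower and 0.986% higher.

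Of the 11 Polycomb genes listed with *Sfmbt2* 0 passed between CLIPΔ and WT, where 0.0% of all genes tested passed. With the replicate number as a block *Phc1* passed as lower, where 1.22% of all genes were lower and 1.64% higher. Between *Ago2* KO and WT 5 of 10 tested were lower and 0 higher, namely *Sfmbt1*, the closest relative of *Sfmbt2*, with *Ezh2*, *Eed* and *Suz12* of the complex that methylates histone H3, and *Pcgf6*. Of all genes in that comparison 43.5% were lower and 14.1% higher. *Sfmbt1*, *Eed* and *Pcgf6* lost their calls with the replicate number as a block over libraries 1 and 2 of either genotype, and also with centred libraries. *Ezh2* and *Suz12* stayed lower in both, and with centring *L3mbtl2* was higher, where 20.5% of all genes were lower and 32.4% higher. Of the 10 genes of miRNA processing 9 were tested between CLIPΔ and WT and 0 passed, as did 0.0% of all genes tested. *Dicer1* was 29.9 and 28.5 TPM in WT and 20.3 and 22.4 TPM in CLIPΔ, which did not overlap, but its log2 difference of -0.44 ± 0.17 did not pass (limma, adjusted p = 0.935). In *Ago2* KO *Dicer1* was lower by a log2 difference of -1.16 ± 0.086 (limma, adjusted p = 0.000216) and *Tarbp2*, a partner of Dicer, was higher by 0.65 ± 0.11 (limma, adjusted p = 0.00251). *Dgcr8*, *Ago1* and *Ago2* were lower as well, of which *Dgcr8* lost its call with centred libraries, so 4 of 8 tested were lower and 1 was higher, where *Ago2* is the deleted gene and 43.5% of all genes were lower and 14.1% higher. Their part in the levels of the members was not tested.

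Trim71 CLIP-seq, which maps the RNA sites bound by Trim71, gave 498 peaks in the deposited list. Of these 0 lay inside *Sfmbt2* and 0 within 1 Mb of it. The list holds the peaks common to 2 replicates and gives no value per replicate.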

How the data were processed

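Small RNAs and mRNAs of mESCs were sequenced, and Trim71-bound RNA was mapped by CLIP-seq. Per the labels and the study's methods, the authors aligned reads to mm10 with HISAT2 2.1.0, counted the longest transcript of each gene and converted the counts to TPM, and the processing notes also name CASAVA 1.4, SAMtools, cutadapt and edgeR. The deposited TPM tables held 1 column per library. The deposited peak list gave a whole read count per peak, of which only the positions were used here.

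The members and gene lists were chosen with earlier results of these data known. Columns were matched to genotypes by name. The WT and CLIPΔ small-RNA columns carry letters A to D, which give the genotype but not the sample, and a code in the CLIPΔ columns was read as that genotype. TPM of miRNAs was rescaled to the same total in each library, and log2(TPM + 1) was fitted with limma 3.58.1 (trend; R 4.3.3) over the groups compared, and over all 4 for the interaction. The filters were a mean of 100 TPM for miRNAs and 1 TPM for genes, and p-values were adjusted by Benjamini-Hochberg and called under 0.05. Fold changes on this scale understate the change of low values. The fits were tested on simulated data. Reads were inferred from the steps in low TPM values, and 100% of 109 single-locus member values under 100 reads came out whole within 0.02.

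Values per library were given for the 8 members with the highest mean and for members past the threshold, up to 8 per comparison by size of the difference, and others were chosen after their values were seen. Deviations from the group means were compared between libraries to check pairing. Those of the same letter correlated at 0.321 to 0.731 between CLIPΔ and WT small-RNA libraries, and those of different letters at -0.676 to 0.274. These were taken as paired by the data, but the values printed for single members are from the fit without the letter unless a block is named. Between *Ago2* KO/CLIPΔ and *Ago2* KO those of the same number correlated at 0.171 to 0.388 (small RNA) and 0.320 to 0.433 (mRNA). Those of different numbers reached 0.412 and 0.467, so the data do not settle whether these libraries pair by number. The block there was set by number alone. Between CLIPΔ and WT mRNA libraries the same numbers gave 0.715 and different numbers -0.715. With 2 libraries per group the deviations mirror each other, so these are a single value and not separate pairs. The numbers shared by mRNA libraries of *Ago2* KO and WT gave -0.154 and 0.0604, and those of *Ago2* KO/CLIPΔ and CLIPΔ gave -0.184 and 0.231, so these share only a number. Alternatives were other pseudocounts, filters and scalings, all groups in a fit, a replicate block, and leaving out each library. Leaving out WT library D without the filter was added after seeing the data. No mature sequence of the members was used here.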

Additional observations from a re-analysis of the deposited data

Results flagged for a closer look

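In 4 libraries of a genotype, a library was marked where its gap to the nearest other was more of the whole range than chance gives in about 1 of 20 groups. Of 114 groups checked 11 were marked, 6 of them by WT library D. In WT library D miR-466d-3p was 220.1 TPM, miR-669f-3p was 55.5 TPM, miR-466m-3p was 23.4 TPM and the summed 3p members were 313 TPM, all high, whereas miR-466n-3p was 2.27 TPM and the 5p reads per 3p read of miR-669e were 5.67, both low. The other marks were the summed miR-669 family in WT library C, low at 1447 TPM, miR-669e-3p in CLIPΔ library B at 5.98 TPM, miR-466n-3p in *Ago2* KO library 1 at 22.02 TPM and miR-297b-5p, also the sum of its family, in *Ago2* KO library 2 at 23.7 TPM.

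The effect of CLIPΔ differed between cells with and without *Ago2* by the test of the interaction in all 9 members past the filter (limma). Of these, miR-467d-5p and miR-669f-5p had means above 100 TPM in CLIPΔ alone and passed the filter through it. On the log2 scale the interaction was -1.98 for miR-467e-5p, -2.47 for miR-669c-5p, -2.47 for miR-467d-5p, -1.84 for miR-467c-5p, -1.74 for miR-669f-5p, -1.91 for miR-669l-5p, -2.04 for miR-669o-5p, -1.73 for miR-466h-5p and -1.94 for miR-466d-3p.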

How the results depend on the processing

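The calls of members changed mainly with the filter, which sets how many are tested. With no filter the number called was 18 for CLIPΔ against WT, 13 for *Ago2* KO against WT, 14 for *Ago2* KO/CLIPΔ against CLIPΔ and 17 for the interaction, with WT library D left out as well 17, 15 and 16 (the first 2 comparisons and the interaction), and with a filter of 500 TPM 5, 2, 4 and 3. Leaving out each library gave 8 to 9, 6 to 7, 8 to 9 and 7 to 9. Of all 507 miRNAs, leaving out WT library D with no filter called 116 higher and 39 lower for CLIPΔ against WT. It called 241 and 145 for *Ago2* KO against WT, and 83 and 151 for the interaction. For *Ago2* KO/CLIPΔ against *Ago2* KO 4 were called, 1 with a filter of 500 TPM, 0 with size factors, 0 with all 4 groups in the fit and 1 to 5 when each library was left out, with 1 called without *Ago2* KO replicate 1 or *Ago2* KO/CLIPΔ replicates 3 or 4; the cause was not tested. With the replicate block 9, 5 and 9 members were called for CLIPΔ against WT, *Ago2* KO/CLIPΔ against *Ago2* KO and the interaction. The fifth was miR-669l-5p (limma, adjusted p = 0.0438), and the block changed no other member's call. Over all miRNAs it called 77 higher and 48 lower between CLIPΔ and WT. Whether the libraries without *Ago2* pair by number is not settled by the data, in which libraries 1 and 2 went together and libraries 3 and 4 did. No block was possible for the other 2 small-RNA comparisons, in which one group carries letters and the other numbers.

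*Sfmbt2* mRNA lost its call between *Ago2* KO and WT with median centring (-0.10) and with the replicate block (-0.47, adjusted p = 0.0603), which takes replicates 1 and 2 only, of libraries that the numbers do not pair. Without the block the same libraries gave an adjusted p of 0.0475 (limma). Between *Ago2* KO/CLIPΔ and *Ago2* KO it was -0.18 over replicates 1 and 2 (adjusted p = 0.0457) and 0.074 over replicates 3 and 4 (adjusted p = 0.0799). Of 695 alternatives for single members 657 kept the call, 31 lost it, 7 gained it and 0 reversed, and of the 31, 21 were in *Ago2* KO/CLIPΔ against *Ago2* KO and 10 were of miR-466d-3p. Few reads limit the low members in the *Ago2* KO groups.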
